A study of Mus musculus with 4 samples.

Results

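Of the 1877 genome clusters listed for 4T1 cells, 735 overlapped no cluster listed for the other 3 libraries of the series and are described here. They were chosen by the measured positions of the clusters, which exist only where the total reached the listing limit. A 4T1 cell cluster was kept when it shared not even 1 nt, on either strand, with a cluster of 4TO7 cells, of 4T1 extracellular vesicles (EVs) or of 4TO7 EVs. A cluster is a stretch of the mouse genome (build mm9) on which small RNA reads piled up, and its total is the number of alignments in it. No listed cluster of any library had a total below 1300, so 1300 is taken here as the limit of listing. A region that is not listed may thus have held alignments below this limit, and the tables do not show whether every region above it was listed. The 735 were 39.2% of the 4T1 cell clusters, and the 4 libraries together listed 4197 clusters. Because the rule used the cluster tables themselves, all positions, totals and strands below are descriptions and carry no test.

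The study compared small RNA of 4T1 and 4TO7, which are breast cancer cell lines of the mouse, with the small RNA of the EVs that each line released. 4T1 is known for spreading from the mammary gland to distant organs, and 4TO7 for poor growth there. Cells of both lines were grown in DMEM with 10% serum freed of EVs, and the labels name no other agent. The EVs were purified by spinning at rising speed, which included 2 ultracentrifuge runs. All 4 RNA samples were depleted of ribosomal RNA and cut from a gel at miRNA size. Each group was 1 library of 1 line, so there was no replicate error, and a difference between libraries cannot be told apart from one between cultures or preparations. The cluster tables hold no marker that would check the identity of either line.

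Small RNA libraries of cells hold miRNAs, which guide the silencing of mRNAs, and fragments of tRNA, ribosomal RNA, small nuclear and small nucleolar RNA. Many of these RNAs are encoded by several near-identical gene copies, and a short read from one copy aligns to the others as well. The aligner was set to give no more than 6 positions for each read, with 1 mismatch. Copies of the same RNA can thus form separate clusters that share reads. The authors labelled 7 of the 4T1 cell clusters, and none of the 735 was among them. Since no annotation or genome of build mm9 was used here, the clusters are named by position and no gene is assigned to them.

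Depth differed between the libraries, and with it what the limit of 1300 meant. Genome-aligned reads numbered 13505699 in 4T1 cells, 11274041 in 4TO7 cells, 7625978 in 4T1 EVs and 5171514 in 4TO7 EVs. Per 1000000 aligned reads the limit stood at 96.3 alignments in 4T1 cells, 115 in 4TO7 cells, 170 in 4T1 EVs and 251 in 4TO7 EVs. A 4T1 cell cluster therefore needed a total of 1557 to reach the limit of 4TO7 cells at an equal share of aligned reads, 2302 to reach that of 4T1 EVs and 3395 to reach that of 4TO7 EVs. Reported alignments per aligned read were 4.44 in 4T1 cells, 4.17 in 4TO7 cells, 5.17 in 4T1 EVs and 4.67 in 4TO7 EVs. Equal shares of aligned reads do not adjust for this. The listed clusters held 57.4% of the alignments reported for 4T1 cells, 67.2% for 4TO7 cells, 83.4% for 4T1 EVs and 68.1% for 4TO7 EVs.

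At an equal share, 504 of the 735 clusters (68.6%) would have been listed in 4TO7 cells, 268 (36.5%) in 4T1 EVs and 168 (22.9%) in 4TO7 EVs, which is the shallowest library. The other 231 lay below what the depth of 4TO7 cells could list, so their absence from that list shows no difference between the lines. For 461 of the 504 the exact Poisson 95% interval of the total also lay at or above 1557. Of all 1582 clusters of 4T1 cells with a total of 1557 or more, the 504 made up 31.9%. The 268 made up 21.9% of the 1223 with a total that reached the 4T1 EV limit. The 168 made up 17.2% of the 977 that reached the 4TO7 EV limit.

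**Figure D1:**
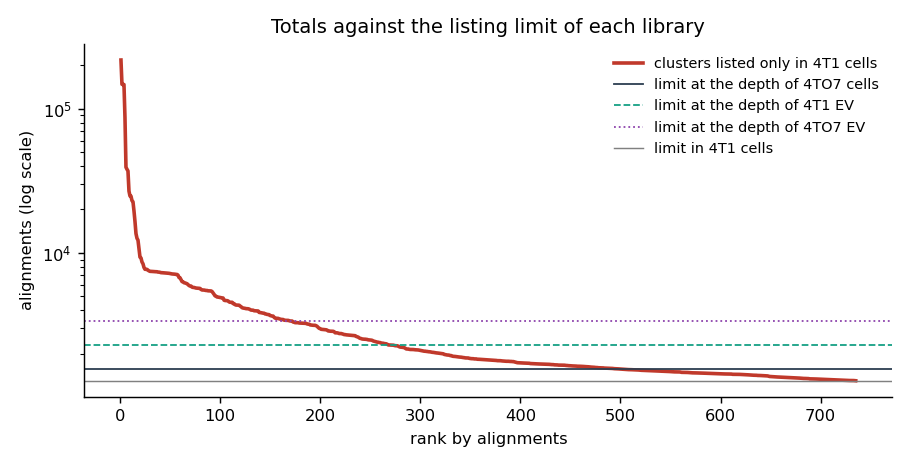
Totals of the 735 clusters listed only in 4T1 cells, ranked from the largest (x axis, rank; y axis, alignments on a log scale), with the listing limit of each library drawn at the height that an equal share of genome-aligned reads would need in 4T1 cells. The curve crosses the 4TO7 cell line (1557) after 504 clusters, the 4T1 EV line (2302) after 268 and the 4TO7 EV line (3395) after 168.

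The reverse list was shorter. In 4TO7 cells 64 of 1171 clusters, or 5.47%, overlapped no cluster of the other 3 libraries. All 64 had a share that would have reached the limit in 4T1 cells. That outcome was fixed in advance and is no check of the 64. The limit was a lower share of aligned reads in 4T1 than in 4TO7 cells, so any listed 4TO7 cell cluster would have reached it. Plus-strand clusters were 65.3% of the 735 and 68.8% of the 64, against 60.5% of all 4T1 cell clusters and 56.4% of all 4TO7 cell clusters. Of the 44 plus-strand clusters among the 64, 30 had totals between 4800 and 5200. Reads of 10 to 14 nt, which match the genome at many places, were 24.0% of the reads of 10 nt or more in 4T1 cells, 14.6% in 4TO7 cells, 9.29% in 4T1 EVs and 4.84% in 4TO7 EVs. The cluster tables give no read length, and the part of these short reads in the length of the 4T1 list was not tested.

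How far below 4T1 cells the 4TO7 cells must have been at these positions can be read only as a bound. Of the 735 clusters, 196 (26.7%) had at least 2 times, 63 at least 4 times and 15 at least 10 times the share that the 4TO7 cell limit allows. Among 911 clusters that paired one to one between the cell libraries with equal width, the median ratio of the 4T1 to the 4TO7 share was 1.04. The ratio was above 2-fold in 121, or 13.3%, and below 0.5-fold in 38, or 4.17%. All 911 had to be listed in both libraries, so their percentages cannot be set directly against those of the 735. The bounds for the 735 clusters assume that every 4TO7 region of 1300 or more alignments was listed, and they follow from the rule that chose the clusters. A read that matches more than 6 positions may be reported at others, so they bound alignments at a position and not the amount of an RNA.

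Most of the 735 clusters were small. Their totals ran from 1300 through a median of 1811 to 217268, against a median of 5958 and a highest total of 1956669 in the 1142 clusters of 4T1 cells that overlapped another library. Totals below 2000 were found in 413 (56.2%) of the 735 and in 146 (12.8%) of the 1142. Totals of 10000 or more were found in 19 (2.59%) and 401 (35.1%). Together the 735 held 2913304 alignments, which was 8.47% of all alignments in listed 4T1 cell clusters. The 20 largest alone held 1076509 of these.

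**Figure D2:**
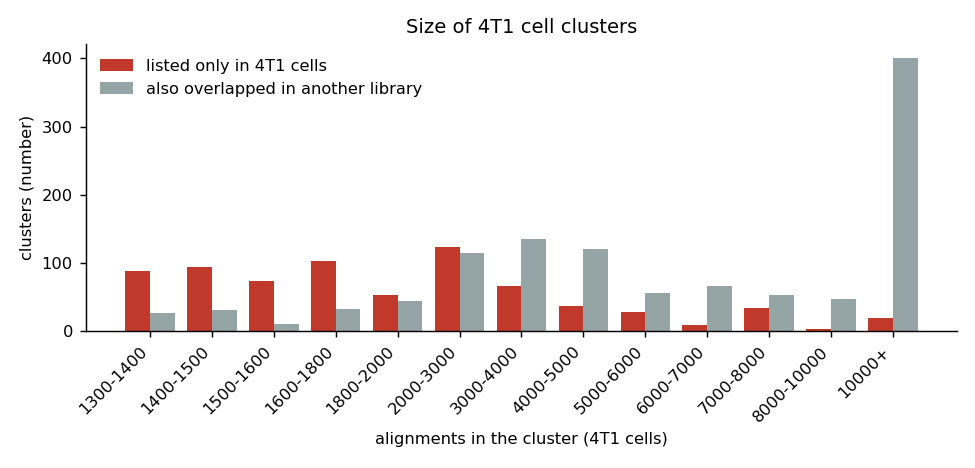
Number of 4T1 cell clusters (y axis) by total alignments (x axis, bands of unequal width), for the 735 listed only in 4T1 cells and the 1142 that another library overlapped. The first set leads in every band below 3000 and the second in every band from 3000 upwards, where the last band holds 19 against 401.

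The share of 4T1-only clusters was lower among larger clusters over most of the range. They were 88 of 115 clusters (76.5%) with totals from 1300 to below 1400, 74 of 85 (87.1%) from 1500 to below 1600 and 103 of 136 (75.7%) from 1600 to below 1800. Above that they were 123 of 238 (51.7%) from 2000 to below 3000 and 66 of 202 (32.7%) from 3000 to below 4000. The bands that followed had 37 of 157 (23.6%) from 4000, 28 of 84 (33.3%) from 5000 and 10 of 77 (13.0%) from 6000. The band from 7000 to below 8000 had 35 of 89 (39.3%), and the band from 8000 to below 10000 had 4 of 51 (7.84%).

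The 5 smallest clusters lay just above the limit. They were on chromosome 16 (30186663 to 30186688, total 1300), chromosome 19 (13129425 to 13129450, 1301), chromosome 5 (12719690 to 12719715, 1304), chromosome 1 (37101727 to 37101752, 1305) and chromosome 2 (60210307 to 60210332, 1305), all on the plus strand. For 71 clusters, or 9.66%, with totals of up to 1371, the Poisson 95% interval reached below 1300. Counting error alone could thus move these 71 on or off the list.

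Position put few clusters near the edge of the rule. Only 25 of the 735 lay within 100 nt of a cluster of another library, 37 within 1000 nt and 146 within 100000 nt, and the median distance to the nearest one was 501182 nt. The closest of those kept was on chromosome 11 (108873191 to 108873216, total 1317), which stopped 2 nt from a 4TO7 cell cluster. On the other side of the rule, a minus-strand cluster on chromosome 11 (33655008 to 33655033, total 4142) shared 1 nt with a 4TO7 cell cluster of 1772 alignments. A plus-strand cluster on chromosome 17 (47985793 to 47985818, total 1762) shared 1 nt with a 4T1 EV cluster of 1311. These were left out, as was a cluster on chromosome 6 (145881444 to 145881469, total 4141) that shared 1 nt with 4TO7 cells. The next 2 shared 2 nt and 3 nt with 4TO7 cell clusters, on chromosome 12 (100883617 to 100883642, total 1890) and chromosome 13 (107912068 to 107912093, total 1351).

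All widths in the 4 tables were multiples of 25 nt, and most of the 735 clusters were as narrow as the tables allow. A width of 25 nt was recorded for 709 (96.5%), 50 nt for 22 and 75 nt for 4, and none was wider. Among the 1142 overlapped clusters 828 (72.5%) were 25 nt wide, 65 were wider than 75 nt and the widest measured 900 nt. The 64 clusters found only in 4TO7 cells were as narrow, with 62 (96.9%) at 25 nt and 2 at 50 nt. Width went with size. The 4 clusters of 75 nt had totals of 146896 or more, those of 50 nt had a median of 3723.5, and those of 25 nt a median of 1785. Wider clusters also have more places to overlap another one.

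Alignments fell almost wholly on a single strand. A cluster was counted as plus or minus when 99% or more of its alignments were on that strand, which held for 480 plus and 235 minus clusters. In 678 of these 715 the opposite strand had no alignment at all. Plus-strand clusters were 65.3% of the 735 and 57.4% of the 1142 overlapped clusters. Neither strand reached 99% in 20 (2.72%) of the 735, and 8 of these 20 were among the 20 largest.

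**Figure D3:**
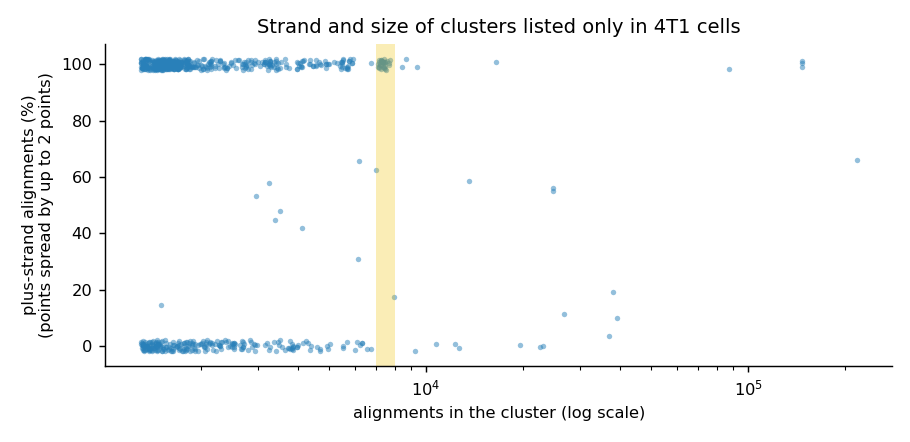
Plus-strand share of alignments in percent (y axis, points spread by up to 2 points so that they can be seen) against total alignments (x axis, log scale) for the 735 clusters listed only in 4T1 cells; the shaded band runs from 7000 to 8000. Points lie on the upper edge for 480 clusters and the lower edge for 235, 20 lie between the strand thresholds, and the shaded band holds 33 plus-strand clusters and no minus-strand one.

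Chromosomes 1 to 19 and X each held some of the 735 clusters. Chromosome 2 had the most with 58, followed by chromosome 11 with 56 and chromosome 1 with 55, and chromosome 19 had the fewest with 19. As a share of the clusters listed in 4T1 cells on each chromosome they ranged from 24.3% on chromosome 8 (34 of 140) to 45.9% on chromosome 14 (34 of 74), with a median of 40.6% over these 20 chromosomes. None of the 6 mitochondrial clusters and not the single Y cluster of 4T1 cells was in the list. Plus-strand clusters outnumbered minus-strand ones on every one of the 20 chromosomes except chromosome 13, where 16 were minus and 15 plus. Chromosome 12 leaned furthest, with 27 plus and 5 minus.

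**Figure D4:**
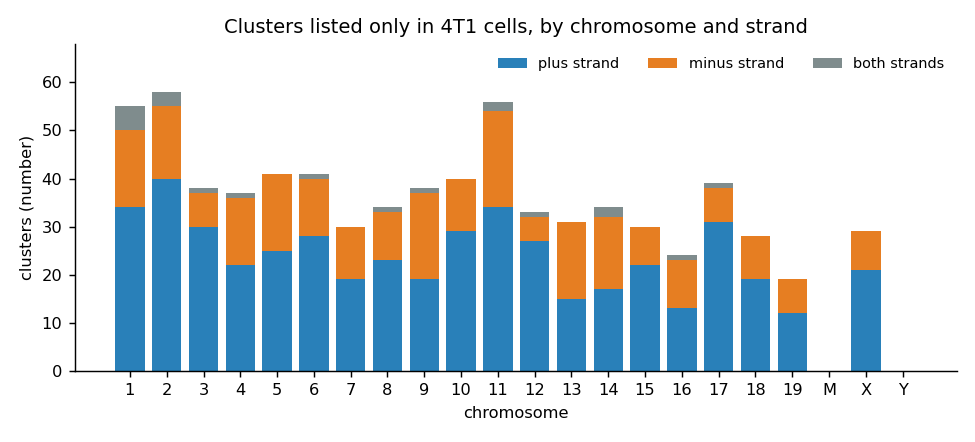
Number of clusters listed only in 4T1 cells (y axis) on each chromosome (x axis; M is the mitochondrial genome), split by strand. Bars range from 19 on chromosome 19 to 58 on chromosome 2, and M and Y are empty.

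By alignments the order of chromosomes was another one. Chromosome 13 held 392354 alignments (13.5% of those in the 735 clusters), chromosome 1 held 390062 (13.4%), chromosome 8 held 306379 (10.5%) and chromosome 3 held 288380 (9.90%). Chromosome 2, with the most clusters, held 139658 (4.79%), and its largest cluster had a total of 7931. The largest cluster of chromosome 8 alone had 217268 of its alignments, and the largest of chromosomes 13, 1 and 3 had 146998, 147413 and 87006.

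The largest cluster listed only in 4T1 cells lay on chromosome 8 (113586459 to 113586534) with 217268 alignments, of which 147236 were on the plus and 70032 on the minus strand. The next 3 were on chromosome 1 (172975114 to 172975189, total 147413) and chromosome 13 (23609070 to 23609145, total 146998; 21802447 to 21802522, total 146896), all on the plus strand only. The 4 clusters had the same width of 75 nt, and their plus-strand counts differed by 0.069% to 0.35% between pairs. Whether these clusters share reads was not tested. The fifth, on chromosome 3 (96115175 to 96115225), had 87006 alignments on the plus strand.

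At an equal share these 5 would have had between 72629 and 181367 alignments in 4TO7 cells, or 55.9 to 140 times the limit there. They would have stood at 37.8 to 94.4 times the limit in 4T1 EVs and 25.6 to 64.0 times in 4TO7 EVs. All 5 were thus far above the depth limit of each of the other 3 lists. A read that matches more than 6 positions may however be reported at others, so a missing cluster at a position does not show that the RNA was missing.

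The surroundings of these 5 clusters differed. Within 100 kb of the chromosome 8 cluster, and of the second chromosome 13 cluster (21802447), no other cluster was listed in any library. Around the chromosome 1 cluster, 4T1 cells listed 7 others, 6 of which were also 4T1-only, while 4TO7 cells listed none, 4T1 EVs 2 and 4TO7 EVs 4. The largest of the 4TO7 EV clusters there had 355194 alignments and the largest of the 4T1 EV clusters 39099. Around the chromosome 3 cluster, 4T1 cells listed 3 others, 1 of which was also 4T1-only. There 4TO7 cells listed 1, 4T1 EVs 5 and 4TO7 EVs 6. Near the first chromosome 13 cluster (23609070) 4T1 cells listed 1 other, 4T1 EVs 1 and 4TO7 cells none. The 4TO7 EVs listed 3, of which the nearest began or ended 864 nt away.

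The remaining clusters of the 20 largest had totals from 9353 to 39271. On chromosome 3 (85083371 to 85083396, total 39271) and chromosome 1 (75476195 to 75476220, total 36976) the minus strand held 35209 and 35240 alignments, a difference of 0.088%, and the plus strand 4062 and 1736. A cluster on chromosome 6 (94585505 to 94585530, total 38012) had 30657 minus and 7355 plus alignments, and one on chromosome 11 (48670137 to 48670187, total 26817) had 24033 and 2784. These 4 were thus mostly but not wholly on the minus strand.

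Some neighbours of the large chromosome 1 cluster also had matching counts. The cluster at 173009575 to 173009625 had 13986 plus and 10831 minus alignments, and the one at 173001961 to 173002011 had 13990 and 10754. Another at 172994333 to 172994383 had 10695 on the minus strand and 2 on the plus strand. The group spanned 15292 nt, and no other library listed a cluster inside it. In all, 9 of the 20 largest clusters matched another of the 20 within 1% on a strand.

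On chromosome 3 a pair of minus-strand clusters lay 3014 nt apart (64651395 to 64651420, total 23039; 64654434 to 64654459, total 22624). A second minus-strand pair on the same chromosome was 50 nt wide each (96262032 to 96262082, total 12635; 96304328 to 96304378, total 12261). The others were on chromosome 13 (21264749 to 21264774, total 19552, minus), chromosome 6 (148357115 to 148357140, total 16519, plus), chromosome 12 (45095634 to 45095659, 7705 plus and 5906 minus) and chromosome 10 (87583314 to 87583339, total 9353, plus). At an equal share the smallest of these, on chromosome 10, would have reached 6.01 times the limit in 4TO7 cells.

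The band of totals from 7000 to below 8000, singled out after its values were seen, held 35 of the clusters. Of these, 33 were on the plus strand, all 25 nt wide, on 15 chromosomes, and their totals ran from 7093 through a median of 7299 to 7701. The other 2 had alignments on both strands. The 4TO7 cell cluster nearest to any of the 33 was 9014 nt away, and the nearest EV cluster 417 nt. At an equal share the median one would have had 6093 alignments in 4TO7 cells, well above 1300.

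The same band held 54 clusters of 4T1 cells that did overlap another library, 38 of them on the plus strand. All 54 overlapped a 4TO7 cell cluster and 4 overlapped an EV cluster. The 4TO7 cell clusters under the 38 had totals from 2350 to 749376 with a median of 6120. In the list of 64 clusters found only in 4TO7 cells, 30 had totals between 4800 and 5200, and all 30 were on the plus strand. That band, too, was chosen with the values known. How many of all 1171 4TO7 cell clusters had totals in it was not counted. Near-equal totals inside a band follow from the choice of its bounds. Whether the bands of the 2 lines hold the same reads was not tested.

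The longest run of neighbouring clusters was on chromosome 2, between 10397980 and 10424937. It held 12 clusters in 26957 nt, each 25 nt wide, on the plus strand and with no minus-strand alignment. From the first to the last, the totals were 1638, 1661, 1695, 1676, 1667, 1723, 1673, 1675, 1699, 1683, 1700 and 1659. The highest was 1.05 times the lowest, and all 12 lay inside the Poisson 95% interval around their mean, 1600 to 1761. The starts of successive clusters were 2413 to 2470 nt apart, with a median of 2451 nt.

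**Figure D5:**
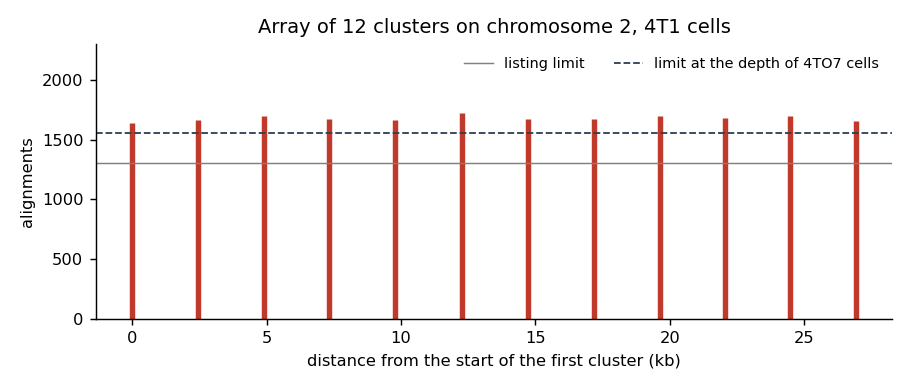
Total alignments in 4T1 cells (y axis) of the 12 chromosome 2 clusters against distance from the start of the first in kb (x axis). Lines mark the listing limit of 1300 and the total of 1557 that 4TO7 cells would need at an equal share of aligned reads. All 12 bars, 1638 to 1723, stand above both lines at a near-constant spacing.

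This array lay close to the limit of 4TO7 cells. At an equal share of aligned reads its clusters would have had 1367 to 1438 alignments there, just above 1300. In 4T1 EVs they would have had at most 973 and in 4TO7 EVs at most 660, below what those lists show. The absence of the array from the EV lists is therefore uninformative, and in 4TO7 cells a share only slightly lower would have removed all 12 at once. A share of reported alignments, which were 4.17 per aligned read in 4TO7 cells against 4.44 in 4T1 cells, would give lower 4TO7 values. Whether all 12 would then still reach 1300 was not computed. The nearest cluster of 4TO7 cells was 182596 nt away. Whether the 12 share reads was not tested, so they cannot be counted as independent, and without the array chromosome 2 would have 46 of the clusters.

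Other runs were short. With gaps of up to 1000 nt the list had 12 runs, each a pair, and with gaps of up to 10000 nt it had 20 runs with 53 clusters in all. The pair on chromosome 11 (20966493 to 20966559) had totals of 5491 and 5456, both on the plus strand. A pair on chromosome X (45637799 to 45638002) had totals of 4923 and 2668, both on the minus strand, and a pair on chromosome 5 (138606799 to 138606998) had 3162 and 1340, also on the minus strand. In each of these 3 spans the other libraries listed nothing. Of the clusters of up to 10000 nt gaps, 4 formed a run on chromosome 17 with clusters of all libraries among them.

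That run bordered the largest cluster of 4T1 cells, which the authors labelled Erf1 (chromosome 17, 39984151 to 39985051, total 1956669). The 4 clusters had totals of 4877 (39984049 to 39984099), 4015 (39982548 to 39982598), 1910 (39980410 to 39980435) and 1369 (39982140 to 39982165), all on the plus strand, and lay 52 to 3716 nt from the labelled cluster. A further one lay on chromosome 6 (3151193 to 3151243, total 4868), 258 nt from a cluster labelled SSU-rRNA_Hsa, a name for ribosomal RNA of the small subunit. The totals of 4877 and 4868 belonged to clusters of 50 nt each, whose nearest 4TO7 cell clusters were 20 and 28 nt away and whose nearest EV clusters were 57 nt away. For the clusters with totals of 4015, 1910 and 1369, the nearest 4TO7 cell clusters were 698, 2861 and 1131 nt away. Their nearest EV clusters were 775, 16 and 1208 nt away. These 5 were the only ones within 5000 nt of a labelled cluster.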

How the data were processed

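Small RNA of 4T1 and 4TO7 cells and of their EVs was sequenced, with 1 library per group. Per the submitters' processing notes, cutadapt, Bowtie and bedtools were used with build mm9, and the deposited logs show Bowtie reporting up to 6 positions per read with 1 mismatch. How clusters were formed and why listing stops at 1300 is not given in the sources used here. The deposited cluster tables hold raw counts of alignments per region and strand, with no normalization. Read totals came from the deposited logs and length tables.

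From these, overlaps (at least 1 nt, strand ignored), distances, strand shares and totals scaled by genome-aligned reads were computed with Python 3.11.15, numpy 2.4.6 and scipy 1.17.1, and the overlap rule was tested on simulated clusters. Poisson intervals (95%) cover counting error only, and alignments are not independent molecules. Coordinates are printed as deposited. None of the clusters listed only in 4T1 cells carried a miRNA label, so the planned comparison of mature miRNAs was not made and the miRNA tables were not used. Sequences were not printed, because no genome of build mm9 was used here. The clusters, bands and rules (the 20 largest, the 5 smallest, the 5 nearest outside the rule, the widest, the chromosomes with most and fewest) were chosen with earlier results of these data known.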

Additional observations from a re-analysis of the deposited data

How the results depend on the processing

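The count of 735 clusters stayed within 1.5 times under 9 of 11 alternatives, and both counts scaled by depth (504 and 168) under each of their 2 alternatives. For the 504 these gave 534 and 638, both higher. A share of reported alignments was not among them, and it would give lower 4TO7 values and hence no more than 504. Holding 4T1 cells to the limit of the shallowest library left 168. Comparing with the EV libraries only, that is without 4TO7 cells, gave 1605 of the 1877 4T1 cell clusters, so most of them overlapped no EV cluster. It was 504 with the limit as a share of 4TO7 cell reads, 799 against 4TO7 cells only, and 750 and 747 without 4T1 EVs and 4TO7 EVs, which were added after seeing the data. It was 758 when an overlap had to cover 0.5 of the width, 710 and 698 with no other cluster within 100 and 1000 nt, 750 with strand considered and 690 with neighbours joined. Only 37 of the 735 lay within 1000 nt of a cluster of another library, so the distance alternatives could move the count little. The lowest count among the 9 was the 504. The planned miRNA alternatives were not run, since none of the 735 carried a miRNA label. No paired analysis was possible because each group was 1 library. Regions below 1300 alignments are beyond these tables.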
